A study of Mus musculus with 24 samples.

Results

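CT-vIII brain tumours that had received the immunotoxin D2C7-IT together with the CD40 antibody aCD40 were compared with CT-vIII tumours that had received vehicle, both harvested at day 0, the day the infusion ended. The sample titles put 3 tumours in each group, 6 of the 24 in the series, and all genes of the deposited counts tables were used. All tumours were grown in the right hemisphere from CT-vIII cells, a CT-2A mouse glioma line transduced with mouse EGFR variant III and firefly luciferase, so every group carries that receptor. In the combination group (D2C7-IT + aCD40), an osmotic pump placed on day 6 after implantation delivered 0.2 µg of D2C7-IT and 10 to 300 µg of aCD40 (clone FGK4.5/FGK45) into the brain at 0.5 µl/h for 72 h, until day 9. The single-agent groups, D2C7-IT alone and aCD40 alone (3 tumours each), followed the same schedule, and the vehicle group received 2% MSA-PBS with 100 µg of a rat IgG2a antibody (clone 2A3). The labels state a range of antibody doses and none for a single tumour, so the combination and aCD40 groups may mix doses. They give no age, sex or strain of the mice. Whether each tumour came from its own mouse is not spelled out in the labels, so the p-values measure the spread between these samples.

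D2C7-IT joins an antibody fragment that binds the epidermal growth factor receptor EGFR and its variant III to a fragment of Pseudomonas exotoxin. The toxin is carried into the cell and inactivates elongation factor 2 at its diphthamide residue, which stops protein synthesis. CD40 is a receptor of the tumour necrosis factor receptor family on dendritic cells, macrophages, microglia, B cells and endothelium. Its adaptors, the TRAF proteins, switch on NF-kB, and its engagement is known to raise costimulatory molecules, IL-12 and chemokines in antigen-presenting cells. Interferon gamma, made by T and NK cells, induces guanylate-binding proteins, antigen presentation and the checkpoint ligand PD-L1.

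The tissue was flash frozen and unsorted, so each value mixes tumour, brain, immune, vessel and blood cells, and fewer cells of a type cannot be told apart from less RNA per cell. The libraries held 39504149, 35367244 and 44609876 counted reads in the combination tumours and 43281810, 37123212 and 24697576 in the vehicle tumours. Mitochondrially encoded transcripts took 2.48%, 2.37% and 2.93% of reads in the combination and 2.69%, 3.24% and 3.18% in vehicle. Neuron markers were abundant in every tumour: the 16 markers summed to 15715, 14699 and 10468 CPM in the combination, against 13645, 11459 and 15800.0 CPM in vehicle. CPM are counts scaled to the counted reads of a library, and the values of a gene are listed in the order of replicates 1, 2 and 3.

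No single gene passed the test. Of 19456 genes tested with edgeR's quasi-likelihood test, 0 (0%) had a Benjamini-Hochberg adjusted p under 0.05, and the smallest adjusted p was 0.997. An unadjusted p under 0.05 was found for 776 genes (3.99%), 399 higher and 377 lower in the combination. The 3 combination tumours lay wholly above the 3 vehicle tumours for 1163 genes (5.98%) and wholly below them for 619 (3.18%), which is the background for the counts of non-overlapping genes below. Among all genes tested the median log2 fold change was 0.0104, and 52% of genes lay above 0. DESeq2 called 32 genes at the same threshold, 23 higher and 9 lower. Genes are therefore given below by their level in each tumour and by the fitted log2 fold change ± SE of the combination over vehicle, with none passing in edgeR.

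Tumours of one group differed widely. The first principal component of the 6 libraries took 42.5% of the variance and set combination replicate 3 and vehicle replicate 3 at its opposite ends. Combination replicate 3 exceeded all vehicle tumours in 42.8% of genes tested, against 28.7% for replicate 2 and 22.2% for replicate 1. Choroid plexus and ependyma markers summed to 32, 377 and 432 CPM in the combination and 59, 59.2 and 556 CPM in vehicle. Like those of oligodendrocytes, they overlapped between groups for all their tested members.

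Levels of Egfr and Eef2, the targets of the immunotoxin, overlapped between the groups. Egfr (chromosome 11, 16752203 to 16918158, GRCm38), which can collect reads of both the mouse gene and the transgene, stood at 14.7, 23.2 and 15.7 CPM in the combination and 49.6, 16 and 17 CPM in vehicle, a log2 fold change of -0.66 ± 0.48. Vehicle replicate 1 stood above the other 5 tumours, and without it the fold change was 0.046. Eef2, the elongation factor that the toxin inactivates, stood at 1078, 1222 and 1496 CPM in the combination and 1351, 1376 and 1178 CPM in vehicle, with full overlap. The 10 members of the list of Eef2, diphthamide synthesis and toxin uptake genes had a median log2 fold change of -0.024. Dph6, the last enzyme of diphthamide synthesis, was lower in all 3 combination tumours by a small margin, at 16.8, 16.9 and 16.6 CPM in the combination against 19.2, 21.9 and 17.9 CPM in vehicle. Among ligands of the EGF receptor family, Nrg1, a ligand of ERBB3 and ERBB4, stood at 13.7, 19.5 and 15.9 CPM in the combination against 13.2, 11.7 and 9.96 CPM in vehicle. Egf was likewise non-overlapping, at 2.56, 2.77 and 3.3 CPM in the combination against 2.08, 2.18 and 1.46 CPM in vehicle. Both margins were small. Tgfa, another EGFR ligand, stood at 22, 32.8 and 41.4 CPM in the combination against 53.6, 69.3 and 20.4 CPM in vehicle and overlapped.

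Cd40 itself was higher in all 3 combination tumours, most in replicate 2. Its level was 1.8, 11.2 and 4.6 CPM in the combination and 1.5, 1.19 and 0.891 CPM in vehicle (chromosome 2, 165055627 to 165072948), a log2 fold change of 2.24 ± 0.67. Without combination replicate 2 the fold change was 1.35. All 13 tested members of the list of CD40, its adaptors and NF-kB subunits had a fold change above 0, with a median log2 fold change of 0.23, and Cd40 was the 1 member without overlap. Without combination replicate 2 the median was -0.053. Replicate 2 was the highest combination tumour for 12 of the 13. Traf1, a TRAF adaptor induced by NF-kB, stood at 2.66, 10.6 and 7.13 CPM in the combination against 3.28, 2.05 and 1.09 CPM in vehicle. Birc3, an inhibitor of apoptosis that joins the TRAF complex, stood at 5.54, 24.3 and 9.55 CPM in the combination against 7.74, 3.91 and 2.87 CPM in vehicle. Relb, a subunit of the non-canonical pathway, stood at 9.62, 37.3 and 12.1 CPM in the combination against 12.3, 8.59 and 8.91 CPM in vehicle. In each of these, combination replicate 1 lay within the vehicle range.

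Genes of blood vessels stood higher in the combination, least in replicate 1. The list of brain endothelium and barrier genes had 19 of 20 members with a fold change above 0, 9 of them without overlap against a background of 5.98%, and a median log2 fold change of 0.42. Leaving out any 1 library kept that median between 0.35 and 0.51. Relative to the vehicle mean, the median member stood at 0.19, 0.59 and 0.53 on the log2 scale in combination replicates 1, 2 and 3. These tumours exceeded all vehicle tumours in 9, 17 and 17 of the 20 members, against 22.2%, 28.7% and 42.8% of all genes tested. Cldn5, the main tight junction claudin of brain endothelium (chromosome 16, 18776847 to 18778262), stood at 74.4, 77.6 and 76.4 CPM in the combination and 46.6, 36.1 and 35.9 CPM in vehicle (log2 fold change 0.91 ± 0.13). Pecam1, an adhesion molecule of endothelial junctions, stood at 31.8, 42.9 and 43.8 CPM in the combination against 24.4, 21.4 and 20.6 CPM in vehicle (log2 fold change 0.79 ± 0.14). Ly6c1, which brain endothelium expresses strongly, stood at 65.5, 66.4 and 81.7 CPM in the combination against 33.5, 43.2 and 34.8 CPM in vehicle (log2 fold change 0.90 ± 0.13). For Cldn5 and Ly6c1 the gap between the groups was wider than the spread within either, while the Pecam1 levels of the combination spread over more than the gap. One member ran the other way without overlap, Mfsd2a, a lipid transporter of the blood-brain barrier, at 18.5, 14.7 and 20.2 CPM in the combination against 27, 23 and 26 CPM in vehicle, named after its values were seen. Vwf, which binds platelets at the vessel wall, was more variable, at 65.7, 113 and 87.6 CPM in the combination and 47.3, 45.2 and 31.1 CPM in vehicle (log2 fold change 1.07 ± 0.23). Esam, an endothelial adhesion molecule, stood at 22, 26 and 23.5 CPM in the combination against 18.5, 15.9 and 15.2 CPM in vehicle.

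Ly6a, Podxl, Lrg1 and Adamts9 were among the 12 genes of smallest p of those higher in the combination without overlap. None of the 12 passed in edgeR. DESeq2 called Ly6a, Podxl, Lrg1 and Adamts9, and 19 of the 24 genes ranked this way in either direction. Both tests used the same 6 libraries, so these calls are not independent support. Ly6a, the stem cell antigen Sca-1, stood at 62.9, 81.1 and 96.6 CPM in the combination and 34.5, 39.6 and 24.1 CPM in vehicle (log2 fold change 1.25 ± 0.20). Its lowest combination tumour lay far above the highest vehicle tumour. Podxl, the sialomucin podocalyxin of endothelium and podocytes, stood at 65.4, 85.8 and 93.7 CPM in the combination against 46.2, 51.4 and 47.9 CPM in vehicle. Lrg1, a secreted glycoprotein of inflamed vessels and neutrophils, stood at 8.2, 9.33 and 7.35 CPM in the combination against 4.09, 3.77 and 3.64 CPM in vehicle (log2 fold change 1.08 ± 0.19). Adamts9, a secreted metalloprotease, stood at 7.27, 8.31 and 7.49 CPM in the combination against 3.74, 3.93 and 2.59 CPM in vehicle. The list of pericyte and smooth muscle markers, the mural cells around vessels, had 6 of 13 members above 0, 1 of them without overlap, and a median log2 fold change of -0.013.

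Selectins and other molecules that capture leukocytes at the vessel wall also stood higher. The list had 9 of 10 members with a fold change above 0, 6 of them without overlap, and a median log2 fold change of 0.93, which lay between 0.67 and 1.15 when 1 library was left out. Selp, P-selectin of platelets and endothelium, stood at 2.03, 6.9 and 2.11 CPM in the combination and 0.393, 0.189 and 0 CPM in vehicle (log2 fold change 4.09 ± 0.98). Sele, the E-selectin of activated endothelium, stood at 1.11, 4.35 and 2.02 CPM in the combination against 0.277, 0 and 0.081 CPM in vehicle (log2 fold change 4.23 ± 1.03). Both were near the limit of detection in vehicle and highest in combination replicate 2. Vcam1, the ligand of integrin VLA-4, overlapped, at 33.7, 118 and 71.1 CPM in the combination against 46.4, 33.6 and 23.6 CPM in vehicle.

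**Figure D1:**
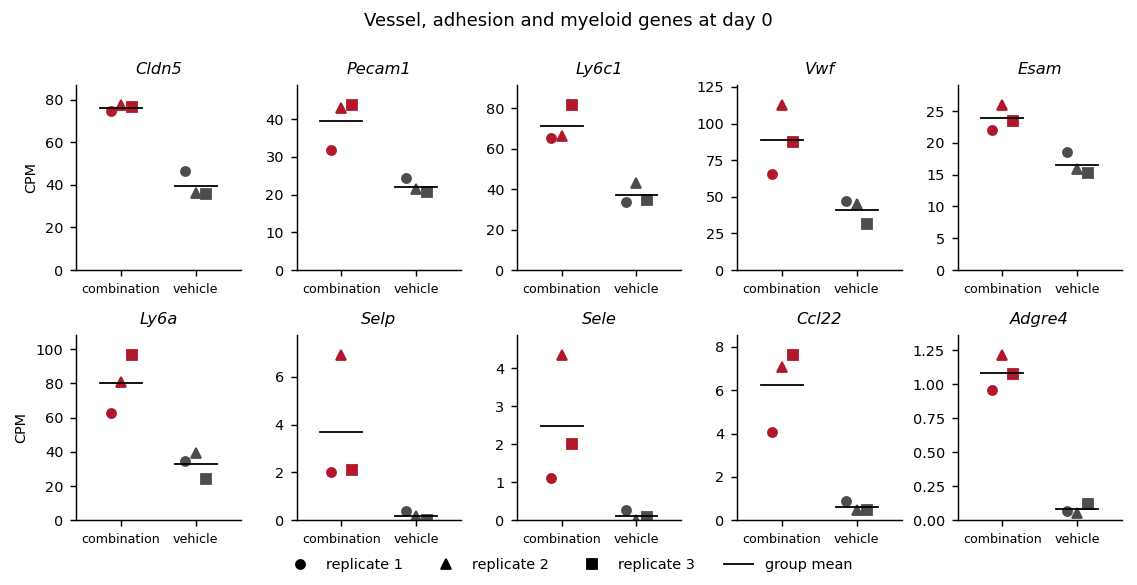
Levels of vessel, adhesion and myeloid genes in CPM (linear axis from 0) in the 3 combination tumours (left, red) and the 3 vehicle tumours (right, grey) at day 0, with each symbol a tumour and the line the group mean. The 10 genes shown are all without overlap, and named genes that overlapped, such as Vcam1, were left out. By that choice every combination tumour lies above every vehicle tumour. Cldn5 is tight within the combination, while Selp and Sele peak in replicate 2.

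The dendritic cell chemokine Ccl22 had one of the lowest p values of the comparison. Ccl22, made by activated dendritic cells and macrophages and bound by CCR4 of regulatory and T helper cells (chromosome 8, 94745590 to 94751699), stood at 4.08, 7.07 and 7.62 CPM in the combination and 0.901, 0.485 and 0.486 CPM in vehicle, a log2 fold change of 3.26 ± 0.38. The lowest combination tumour was several times the highest vehicle tumour. Adgre4, an adhesion G protein-coupled receptor of macrophages, stood at 0.962, 1.22 and 1.08 CPM in the combination against 0.0693, 0.0539 and 0.121 CPM in vehicle (log2 fold change 3.71 ± 0.40). The list of dendritic cell markers, which holds Ccl22, had 6 of 13 members above 0 and a median log2 fold change of -0.067. In the list of dendritic and lymphoid chemokines and their receptors, Ccl22 was the 1 of 7 tested members without overlap. Ccr7, the receptor that guides dendritic cells to lymph nodes, stood at 0.633, 3.85 and 1.26 CPM in the combination and 1.66, 0.485 and 0.243 CPM in vehicle.

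Il12b, the p40 subunit shared by IL-12 and IL-23, was higher in all 3 combination tumours. It stood at 0.861, 6.31 and 3.92 CPM in the combination and 0.162, 0.269 and 0 CPM in vehicle (log2 fold change 4.52 ± 1.04), and was lowest in combination replicate 1. Among costimulatory and checkpoint molecules, 9 of 14 tested members had a fold change above 0, 2 without overlap, with a median log2 fold change of 0.27, which was -0.045 without combination replicate 2 and -0.025 without vehicle replicate 3. Cd274, which encodes PD-L1, stood at 12.5, 40.6 and 66.4 CPM in the combination and 10.3, 7.87 and 2.96 CPM in vehicle (log2 fold change 2.44 ± 0.67), and its lowest tumour, replicate 1, lay just above the highest vehicle tumour. Tnfrsf18, the receptor GITR, was the other, at 6.46, 5.63 and 7.58 CPM in the combination against 5.11, 4.31 and 5.26 CPM in vehicle. Icosl, the ligand of the T cell receptor ICOS, stood at 9.21, 35.9 and 20.3 CPM in the combination against 10.3, 7.54 and 4.86 CPM in vehicle. Cd80, a ligand of CD28 and CTLA-4, stood at 0.683, 3.39 and 1.23 CPM in the combination against 0.924, 0.485 and 0.364 CPM in vehicle. Both overlapped at combination replicate 1 and were highest in replicate 2.

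Genes induced by interferon gamma stood higher in the combination, least in replicate 1. Of 24 members, 23 had a fold change above 0 and 11 did not overlap (background 5.98%), and the median was 1.59, between 1.22 and 2.05 when 1 library was left out. Several members, the Gbp, Irg and Tgtp genes, are near-identical copies whose reads could be split among them. Gbp10, a guanylate-binding protein (chromosome 5, 105215699 to 105239533), stood at 3.57, 10.2 and 17.9 CPM in the combination and 2.17, 1.59 and 0.891 CPM in vehicle (log2 fold change 2.69 ± 0.61). Gbp4 stood at 23.6, 40.5 and 58 CPM in the combination against 15.9, 8.11 and 4.09 CPM in vehicle (log2 fold change 2.07 ± 0.53). Nos2, the inducible nitric oxide synthase of activated macrophages, was even across the group, at 1.62, 2.32 and 1.97 CPM in the combination against 0.832, 0.862 and 0.607 CPM in vehicle (log2 fold change 1.31 ± 0.27). Combination replicate 3 was the highest of its group for 17 of the 24 members and replicate 2 for 7. In vehicle, replicate 1 was the highest for 21. Relative to the vehicle mean, the median member stood at 0.47, 1.87 and 2.13 on the log2 scale in combination replicates 1, 2 and 3. Oligodendrocyte markers were ordered alike, summing to 2061, 5789 and 8435 CPM in the combination and 5949.5, 5423 and 3049.9 CPM in vehicle, and their part in this result was not tested.

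Genes of the type I interferon response were all above 0 in fold change but did not separate the groups. The list had 24 of 24 members above 0, 0 without overlap, and a median log2 fold change of 1.16. Combination replicates 2 and 3 exceeded all vehicle tumours in 24 and 23 of the 24 members, and replicate 1 in 0. Stat2, a subunit of the interferon-stimulated gene factor, stood at 61.8, 116 and 132 CPM in the combination and 63.9, 57.3 and 34.1 CPM in vehicle (log2 fold change 0.95 ± 0.32). Ifi44, an antiviral protein, stood at 7.97, 18.8 and 25.3 CPM in the combination against 8.25, 5.68 and 1.86 CPM in vehicle. Xaf1, a pro-apoptotic interferon target, stood at 14.8, 34.9 and 38.5 CPM in the combination against 18, 12.8 and 6.15 CPM in vehicle. In all 3 genes, replicate 1 of the combination lay below vehicle replicate 1.

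Genes of antigen presentation on MHC class I again stood lowest in replicate 1 of the combination, with medians of 0.042, 1.20 and 1.33 over the vehicle mean on the log2 scale in replicates 1, 2 and 3. All 18 members had a fold change above 0, 2 of them without overlap, with a median log2 fold change of 0.99, which was 1.60 without vehicle replicate 1. Tap2, a subunit of the peptide transporter of the endoplasmic reticulum, stood at 32.8, 64 and 94.3 CPM in the combination and 28.4, 23.4 and 11.5 CPM in vehicle (log2 fold change 1.54 ± 0.44). Psmb10, a subunit of the immunoproteasome, stood at 44.8, 61.3 and 72.6 CPM in the combination against 43.1, 39.6 and 33.8 CPM in vehicle (log2 fold change 0.57 ± 0.17). Both genes separated the groups only narrowly, at combination replicate 1. H2-T23, the non-classical molecule Qa-1, overlapped at replicate 1, at 50.7, 122 and 172 CPM in the combination against 55.1, 39.9 and 23.2 CPM in vehicle. Tap1, the other subunit of that transporter, also overlapped, at 37, 97.9 and 124 CPM in the combination against 44.1, 25.6 and 9.35 CPM in vehicle. The class II list had 10 of 11 members above 0 but 0 without overlap and a median log2 fold change of 0.36. Its median was -0.13 without combination replicate 3. Ifi30, the lysosomal thiol reductase that prepares antigen for class II, stood at 12.6, 35.4 and 24.9 CPM in the combination and 18.8, 9.97 and 4.13 CPM in vehicle.

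Many interferon-stimulated genes carry a short promoter element bound by interferon-activated factors, shown here for 2 named members whose promoters hold it, Stat2 (chr10:128270248-128270497, plus strand) and H2-T23 (chr17:36032702-36032951, minus strand). The 250 bases before each gene start are from RefSeq (GRCm38.p6), written 5′ to 3′ along the gene's strand, with matches on either strand to GAAA, 2 bases of any kind and GAAA in capitals.
Stat2: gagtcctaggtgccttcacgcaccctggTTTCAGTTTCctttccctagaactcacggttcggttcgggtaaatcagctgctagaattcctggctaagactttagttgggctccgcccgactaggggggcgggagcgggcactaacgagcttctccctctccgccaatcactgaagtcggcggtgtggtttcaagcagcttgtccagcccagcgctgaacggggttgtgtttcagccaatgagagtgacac
H2-T23: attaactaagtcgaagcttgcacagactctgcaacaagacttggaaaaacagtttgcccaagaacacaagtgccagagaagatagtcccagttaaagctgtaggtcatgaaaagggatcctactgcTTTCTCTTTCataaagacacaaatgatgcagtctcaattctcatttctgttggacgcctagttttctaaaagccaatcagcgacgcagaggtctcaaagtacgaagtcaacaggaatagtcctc
The match lies 222 bases before the start of Stat2 and 124 bases before that of H2-T23. The element was found in 3.04% of 27025 promoters in the table, in 10 of the 14 promoters found for the interferon gamma list and in 9 of 17 for the type I list. It was in 3 of 16 for MHC class I and in 0 of 15 for brain endothelium. Cytosolic ribosomal proteins, with a median log2 fold change of -0.11, had it in 3 of 12. A match describes the letters only.

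Among T cell-recruiting chemokines, 7 of 8 members had a fold change above 0, 2 without overlap. Cxcl10, a CXCR3 ligand induced by interferons and NF-kB, stood at 20.9, 106 and 68.2 CPM in the combination and 19.1, 19.2 and 1.58 CPM in vehicle (log2 fold change 2.25 ± 0.94). Cxcl11 stood at 1.14, 5.29 and 1.79 CPM in the combination against 0.37, 0.485 and 0 CPM in vehicle. Cxcl9, the third ligand of CXCR3 and the most dependent on interferon gamma, overlapped, at 7.11, 9.67 and 15.3 CPM in the combination against 7.51, 1.99 and 1.09 CPM in vehicle. The T cell list had 13 of 19 members above 0, 0 without overlap, and a median log2 fold change of 0.34, which was -0.65 without combination replicate 2. Cd8a, the co-receptor of cytotoxic T cells, stood at 0.38, 3.51 and 1.03 CPM in the combination and 2.01, 0.377 and 0.405 CPM in vehicle. Gzmb, the protease granzyme B, stood at 1.19, 3.51 and 2.22 CPM in the combination against 2.77, 0.70 and 0.567 CPM in vehicle. Ifng had 8 counts over the combination tumours and 6 over the vehicle tumours and was too low to test. B and plasma cell markers had 5 of 12 members above 0 and 0 without overlap. NK and cytotoxic genes had 10 of 10 above 0, 2 without overlap, with a median log2 fold change of 0.85, which was 1.89 without vehicle replicate 1 and 0.47 without vehicle replicate 3.

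NF-kB target genes stood higher mainly through combination replicate 2. The list of NF-kB inhibitors and targets had 14 of 15 members above 0, 1 without overlap, and a median log2 fold change of 1.58. Replicate 2 was the highest combination tumour for 15 of 15 members, and without it the median was 0.22. T cell markers were also highest in that tumour, for 15 of 19 tested, and their part in this result was not tested. Steap4, a metalloreductase induced by inflammatory cytokines, was the member without overlap, at 2.84, 54.8 and 6.77 CPM in the combination and 1.41, 0.62 and 0.486 CPM in vehicle (log2 fold change 4.61 ± 1.26). Icam1, the leukocyte adhesion molecule, stood at 12.8, 117 and 30.6 CPM in the combination against 14.1, 7.38 and 3.4 CPM in vehicle (log2 fold change 2.65 ± 0.91). Ptx3, a secreted pentraxin, stood at 2.61, 44 and 1.08 CPM in the combination against 2.03, 0.485 and 0.445 CPM in vehicle (log2 fold change 3.95 ± 1.55), and its fold change was 0.87 without replicate 2.

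Chemokines of neutrophils and monocytes followed the same tumour. Cxcl1 (chromosome 5, 90891241 to 90893115), a CXCR2 ligand that draws neutrophils, stood at 0.861, 25.1 and 0.852 CPM in the combination and 0.37, 0.215 and 0.162 CPM in vehicle (log2 fold change 5.08 ± 1.62), and at 1.70 on the log2 scale without replicate 2. Its neighbour Cxcl2 (chromosome 5, 90903871 to 90905938) stood at 0.456, 10.1 and 0.516 CPM in the combination and 0.0462, 0 and 0.0405 CPM in vehicle. Cxcl2 had 398 counts in the combination and 3 in vehicle, a ratio of 117 per counted read, with an exact 95% interval of 39.6 to 568 that covers counting error only. Their receptor Cxcr2 was too low to test, with 23 counts in the combination and 3 in vehicle. Ccl2, the CCR2 ligand that recruits monocytes, stood at 5.34, 52.8 and 10.3 CPM in the combination against 4.39, 1.99 and 0.243 CPM in vehicle (log2 fold change 3.32 ± 1.19). Ccl7, a related ligand, stood at 2.03, 22.6 and 4.73 CPM in the combination against 0.993, 1.83 and 0.243 CPM in vehicle. All 4 of these chemokines were without overlap, and in all 4 replicates 1 and 3 lay far closer to vehicle than replicate 2 did. Of the 11 tested monocyte-recruiting chemokines, 9 were above 0 and 2 did not overlap, with a median log2 fold change of 0.42. That median was -0.25 without combination replicate 2. The list of CXCR2 ligands and receptors had only 3 of 7 members tested, 2 of them above 0 and without overlap.

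Cxcl1 and Cxcl2 lie close together on chromosome 5, and the 250 bases before their RefSeq starts are shown because each holds 2 matches to the NF-kB element. The sequences are from RefSeq (GRCm38.p6), plus strand, 5′ to 3′, at chr5:90890995-90891244 for Cxcl1 and chr5:90903649-90903898 for Cxcl2, with matches on either strand to GGG, 2 bases of any kind and TTTCC in capitals.
Cxcl1: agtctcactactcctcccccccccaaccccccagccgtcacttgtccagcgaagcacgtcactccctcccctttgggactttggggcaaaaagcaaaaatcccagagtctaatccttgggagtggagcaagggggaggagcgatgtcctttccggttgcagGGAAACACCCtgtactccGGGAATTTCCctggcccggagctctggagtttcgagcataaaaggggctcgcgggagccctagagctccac
Cxcl2: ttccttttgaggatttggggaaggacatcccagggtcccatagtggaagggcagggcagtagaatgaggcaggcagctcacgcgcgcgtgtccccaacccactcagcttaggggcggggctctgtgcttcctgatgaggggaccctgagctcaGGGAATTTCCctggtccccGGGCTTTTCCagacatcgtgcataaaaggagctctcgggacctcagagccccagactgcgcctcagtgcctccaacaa
The matches lie 89 and 71 bases before the RefSeq start of Cxcl1 and 97 and 78 bases before that of Cxcl2. Both RefSeq starts lie slightly inside the gene coordinates given above, which come from another annotation. The element was found in 1.4% of the 27025 promoters, in 3 of 6 for the list of CXCR2 ligands and receptors (with Cxcl3) and in 3 of 13 for the NF-kB list.

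Inflammatory cytokines had 14 of 15 tested members above 0, 3 without overlap, and a median log2 fold change of 1.09. Tnf stood at 1.06, 17.4 and 3.32 CPM in the combination and 1.09, 0.862 and 0.202 CPM in vehicle (log2 fold change 3.27 ± 1.13), overlapping at replicate 1. Il1a, the alarmin interleukin-1 alpha, stood at 3.49, 23.6 and 4.98 CPM in the combination against 2.96, 2.21 and 1.05 CPM in vehicle without overlap. Csf1, the growth factor of macrophages, stood at 29.9, 112 and 65.7 CPM in the combination against 43.3, 27.6 and 23.2 CPM in vehicle. Replicate 2 was the highest combination tumour for 13 of the 15, and without it the median was 0.46. Of the gp130 and acute phase list, all 15 tested members were above 0 and 3 did not overlap, with a median log2 fold change of 1.11. Replicate 2 was the highest combination tumour for 12 of them, and without it the median was 0.32. The list includes Lrg1, described above. Hp, the haemoglobin scavenger haptoglobin, was one of the members without overlap, at 0.962, 1.98 and 1.55 CPM in the combination against 0.693, 0.566 and 0.526 CPM in vehicle (log2 fold change 1.28 ± 0.34). Mmp3, a stromelysin that cleaves matrix, stood at 0.43, 0.679 and 0.359 CPM in the combination and 0.0693, 0 and 0 CPM in vehicle. It had 57 counts in the combination and 3 in vehicle, all 3 in vehicle replicate 1, a ratio of 16.7 per counted read with an exact 95% interval of 5.44 to 83.4 that covers counting error only and not the spread between tumours. Complement had 11 of 14 members above 0 and 1 without overlap. That was C1s1, the C1s protease, at 5.09, 17.7 and 9.86 CPM in the combination against 3.63, 2.51 and 2.02 CPM in vehicle (log2 fold change 1.95 ± 0.48). C3, the central component, overlapped, at 24.9, 163 and 94.6 CPM in the combination against 50.2, 17.5 and 7.53 CPM in vehicle.

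**Figure D2:**
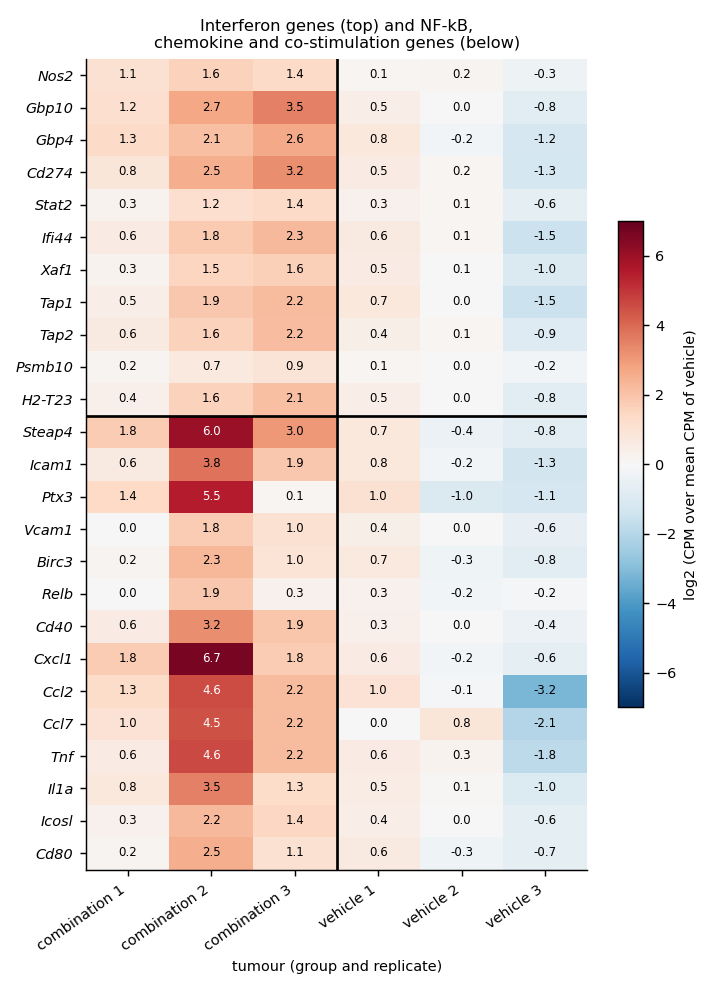
Level of named genes in each of the 6 tumours (columns, combination left of the line, vehicle right) as log2 of CPM over the mean CPM of vehicle, written in each cell and coloured from blue (lower) to red (higher). Interferon genes, in the upper block, are palest in combination replicate 1 and mostly reddest in replicate 3, while the NF-kB, chemokine and costimulation genes of the lower block are reddest in replicate 2.

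Myeloid cell markers differed in direction by type. Among neutrophil markers, S100a8 and S100a9, the calgranulins of neutrophils and monocytes, were higher without overlap but low. S100a8 stood at 0.481, 1.87 and 0.426 CPM in the combination and 0.0462, 0.215 and 0.162 CPM in vehicle. S100a9 stood at 1.16, 1.53 and 0.56 CPM in the combination against 0.139, 0.35 and 0.324 CPM in vehicle. The other 4 tested neutrophil markers overlapped, and Ly6g, which defines the lineage, had 2 counts in the combination and 0 in vehicle. Of the monocyte and inflammatory macrophage list, 11 of 16 members were above 0 and 3 did not overlap, with a median log2 fold change of 0.41, which was 1.28 without vehicle replicate 1 and 0.048 without vehicle replicate 3. The 3 without overlap were Plac8, Chil3 and Ifitm6. Plac8, a protein of monocytes and plasmacytoid dendritic cells, stood at 3.75, 6.67 and 7.91 CPM in the combination against 3.03, 1.43 and 0.405 CPM in vehicle. Chil3, a chitinase-like protein, stood at 3.24, 4.5 and 3.9 CPM in the combination against 1.73, 0.242 and 0.081 CPM in vehicle. Ifitm6, a myeloid interferon-induced membrane protein, stood at 0.557, 1.07 and 0.74 CPM in the combination against 0.323, 0.431 and 0.162 CPM in vehicle.

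Markers of perivascular and alternatively activated macrophages stood lower in the combination, least so in replicate 2. The list had 11 of 13 tested members with a fold change below 0, 6 of them without overlap against a background of 3.18%, and a median log2 fold change of -0.89. The median stayed between -1.08 and -0.62 when 1 library was left out. Replicate 2 was the highest combination tumour for 8 of the 13. Relative to the vehicle mean, its median member stood at -0.18 on the log2 scale, and those of replicates 1 and 3 stood lower. The list summed to 44.1, 74.2 and 55.3 CPM in the combination against 109.8, 76.9 and 62.4 CPM in vehicle. Combination replicate 2 thus exceeded vehicle replicate 3 in that sum. Mrc1, the mannose receptor CD206 (chromosome 2, 14229392 to 14332057), stood at 4.08, 3.17 and 3.27 CPM in the combination and 5.89, 8.65 and 6.96 CPM in vehicle (log2 fold change -1.06 ± 0.24). Clec10a, a galactose-binding lectin, stood at 0.658, 0.735 and 0.628 CPM in the combination against 1.43, 1.48 and 1.82 CPM in vehicle (log2 fold change -1.26 ± 0.27). Cd163, the scavenger receptor for haemoglobin and haptoglobin, stood at 2.61, 0.961 and 2.4 CPM in the combination against 4.57, 9.43 and 4.66 CPM in vehicle (log2 fold change -1.67 ± 0.48). Cd209f, a C-type lectin, stood at 0.304, 0.311 and 0.224 CPM in the combination against 0.762, 1.27 and 0.891 CPM in vehicle (log2 fold change -1.82 ± 0.35). In Mrc1 and Clec10a the 3 combination tumours were close together, while Cd163 was lowest in replicate 2. Cd36, a scavenger receptor that endothelium also expresses, ran the other way without overlap, at 2.94, 2.88 and 6.21 CPM in the combination against 2.47, 2.15 and 1.09 CPM in vehicle, and is named after its values were seen.

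Microglia, the resident macrophages of brain, had 7 of 15 markers above 0 and a median log2 fold change of -0.081, which was 0.28 without vehicle replicate 1. Their homeostatic genes P2ry12, an ADP receptor, and Gpr34 were the 2 members wholly below vehicle. P2ry12 stood at 19.6, 21.6 and 20.4 CPM in the combination against 32, 22.4 and 25.7 CPM in vehicle. Gpr34 stood at 5.64, 8.77 and 7.2 CPM in the combination against 14.1, 9.02 and 9.23 CPM in vehicle. The margins were narrow at vehicle replicate 2 for both. Fcrls stood at 21.6, 18.4 and 9.37 CPM in the combination and 61.3, 20.8 and 26.5 CPM in vehicle and overlapped.

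Fibroblast and meningeal genes stood lower as well. Of 13 members, 11 had a fold change below 0, 2 of them without overlap, and the median was -0.58, between -0.69 and -0.54 when 1 library was left out. Col1a1, a chain of type I collagen (chromosome 11, 94936224 to 94953042), stood at 15.6, 19.2 and 17.5 CPM in the combination and 30.2, 24.8 and 29 CPM in vehicle (log2 fold change -0.73 ± 0.14). Fmod, the collagen-binding proteoglycan fibromodulin, stood at 10.6, 4.58 and 9.93 CPM in the combination against 16.6, 26.8 and 24.5 CPM in vehicle (log2 fold change -1.47 ± 0.36). Col1a1 was even within both groups, Fmod was not. Ogn, the proteoglycan mimecan, overlapped, at 3.62, 2.86 and 6.43 CPM in the combination against 5.64, 16.2 and 8.95 CPM in vehicle. Myoc, the secreted glycoprotein myocilin, was the lower gene of smallest p, at 12.9, 11.6 and 10.5 CPM in the combination against 26.5, 28.3 and 37.6 CPM in vehicle (log2 fold change -1.44 ± 0.20).

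Red cell transcripts stood lower in the combination. All 5 tested members were below 0, 3 without overlap, with a median log2 fold change of -1.56, which was -0.92 without vehicle replicate 3. Hba-a1, an alpha globin gene nearly identical to Hba-a2, stood at 3.77, 5.65 and 6.1 CPM in the combination and 7.46, 11.8 and 30.0 CPM in vehicle (log2 fold change -1.73 ± 0.55). Alas2, the first enzyme of haem synthesis in erythroid cells, overlapped, at 0.759, 1.07 and 0.941 CPM in the combination against 0.993, 1.99 and 3.24 CPM in vehicle.

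Some genes of hypoxia stood lower in the combination. In the hypoxia and glycolysis list 12 of 17 members were below 0, 3 without overlap, with a median log2 fold change of -0.13. P4ha1, a collagen prolyl hydroxylase induced by HIF-1, stood at 43.5, 59.1 and 51 CPM in the combination and 77.8, 69.6 and 70.3 CPM in vehicle (log2 fold change -0.54 ± 0.13). Vegfa, the vascular endothelial growth factor, stood at 51.8, 58.8 and 71.9 CPM in the combination against 90.1, 74.5 and 83.7 CPM in vehicle (log2 fold change -0.49 ± 0.13). The groups did not overlap in either gene. Angptl4, an inhibitor of lipoprotein lipase on the list of glucocorticoid-responsive genes, ran the other way without overlap, at 5.67, 12.9 and 5.45 CPM in the combination against 1.78, 3.15 and 2.47 CPM in vehicle (log2 fold change 1.67 ± 0.43). The integrated and ER stress list had 8 of 18 members above 0, with a median log2 fold change of -0.11. In it 1 member was higher without overlap and 0 were lower without overlap. Hspa5, the chaperone BiP, stood at 272, 251 and 416 CPM in the combination and 457, 452 and 363 CPM in vehicle and overlapped. Xbp1, a transcription factor of the unfolded protein response, also overlapped and stood at 82.4, 81.9 and 107 CPM in the combination against 102, 118 and 112 CPM in vehicle. Creb3l1, on the same list, ran the other way (log2 fold change 0.79 ± 0.30). Sgk1, a glucocorticoid-induced kinase, was lower without overlap, at 45.5, 80.2 and 78.3 CPM in the combination against 105, 117 and 90.7 CPM in vehicle (log2 fold change -0.66 ± 0.21).

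Among p53 and apoptosis genes, 10 of 17 were above 0 with a median log2 fold change of 0.042. In that list 2 members were higher and 1 was lower without overlap. Fas, the death receptor CD95, stood at 3.11, 12.9 and 4.3 CPM in the combination and 2.45, 2.72 and 2.11 CPM in vehicle (log2 fold change 1.45 ± 0.56), without overlap and highest in replicate 2. Bid, which links death receptors to mitochondria, stood at 9.62, 12 and 11.1 CPM in the combination against 8.66, 7.46 and 8.02 CPM in vehicle. Zmat3, on the same list, ran the other way (log2 fold change -0.25 ± 0.10). Proliferation genes did not separate the groups: 19 of 20 cell cycle genes were below 0, 0 without overlap, and the median log2 fold change of -0.47 became 0.52 without vehicle replicate 1, the tumour that was highest of its group for all 20. Immediate early genes had 14 of 18 members below 0 and 2 without overlap, Fosb and Klf4. Relative to the vehicle mean, their median member stood at -0.96, 0.40 and -1.88 on the log2 scale in combination replicates 1, 2 and 3. The median log2 fold change of that list was -0.45, and -1.20 without combination replicate 2. Fosb, a subunit of AP-1 induced by neuronal activity, stood at 24.8, 26.9 and 9.64 CPM in the combination against 31.6, 30.6 and 58.4 CPM in vehicle. Neuron (-0.063) and astrocyte (0.014) lists had medians close to that of all genes and 0 members without overlap.

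**Figure D3:**
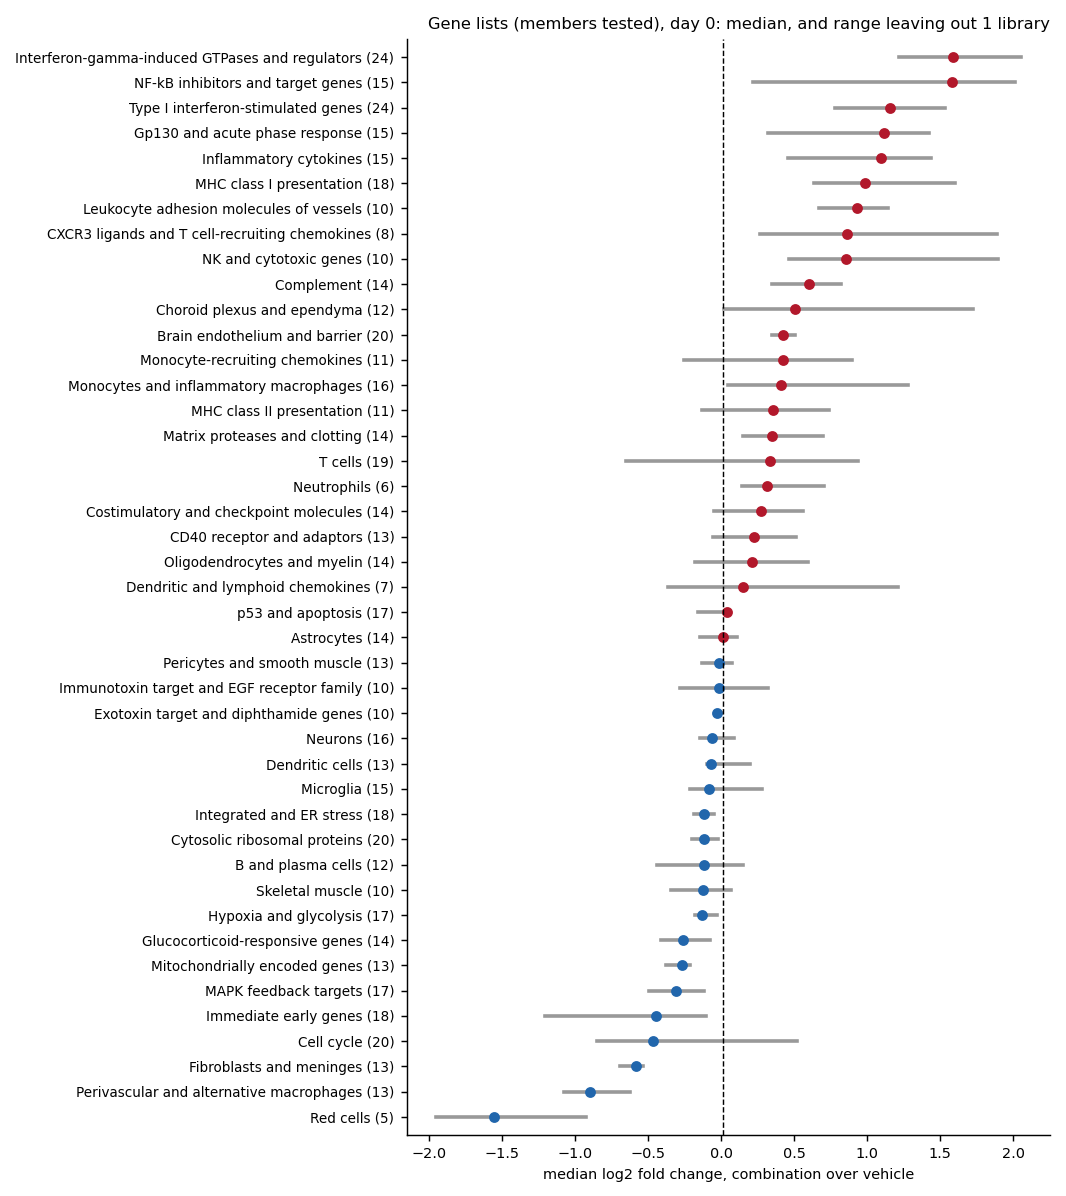
Median log2 fold change of combination over vehicle for gene lists with at least 5 tested members (number tested in brackets), ordered from high to low, with the grey bar showing the range of the median when each of the 6 libraries was left out and the dashed line the median of all genes, 0.0104. The endothelial list has one of the narrowest bars among those above the line, and the NF-kB bar reaches down to 0.22. Red cell, perivascular macrophage and fibroblast lists lie below the line over their whole bars. So do several lists with medians nearer the line, among them immediate early, MAPK feedback, mitochondrially encoded and hypoxia genes.

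The other genes among the 24 ranked by p, which were taken only where the groups did not overlap, came from varied functions. Slit1, an axon guidance ligand, stood at 144, 159 and 129 CPM in the combination against 79.3, 70.1 and 89 CPM in vehicle. Srarp stood at 5.59, 6.25 and 6.05 CPM in the combination against 2.5, 3.18 and 2.31 CPM in vehicle. Cfap52, a protein of motile cilia, stood at 2.35, 1.92 and 2.98 CPM in the combination against 0.693, 0.70 and 0.972 CPM in vehicle. In each of these 3 the lowest combination tumour lay well above the highest vehicle tumour. Klf4, a transcription factor of endothelium and macrophages, was lower in all 3 combination tumours, at 6.86, 8.31 and 9.33 CPM in the combination against 14.7, 13.3 and 13.4 CPM in vehicle (log2 fold change -0.80 ± 0.15). Tcim stood at 0.81, 0.82 and 1.17 CPM in the combination against 5.36, 2.77 and 1.86 CPM in vehicle (log2 fold change -1.88 ± 0.43). Ppp1r3c, a glycogen-targeting subunit of protein phosphatase 1, stood at 29.8, 27.4 and 31.3 CPM in the combination against 41.9, 45.6 and 44.3 CPM in vehicle. Mn1, a transcriptional co-regulator, stood at 51.4, 45.3 and 46.4 CPM in the combination against 72.4, 73.1 and 68.2 CPM in vehicle. Cxcl14, a chemokine of epithelium and neurons, stood at 81.1, 75 and 79.3 CPM in the combination against 100.2, 110.2 and 103 CPM in vehicle. In both the groups were well apart relative to their spread. Ryr1, a calcium release channel, stood at 27.3, 27.9 and 34.4 CPM in the combination against 41.8, 61.1 and 43.9 CPM in vehicle. Grm3, a metabotropic glutamate receptor of astrocytes and neurons, stood at 39.8, 38.7 and 38.8 CPM in the combination against 54.2, 50.2 and 49.9 CPM in vehicle. Dnase1l2, a DNase, stood at 4.56, 5.15 and 5.96 CPM in the combination against 7.76, 9.75 and 8.5 CPM in vehicle. The log2 fold changes of Ppp1r3c, Mn1, Cxcl14, Ryr1, Grm3 and Dnase1l2 ran from -0.77 to -0.43.

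**Figure D4:**
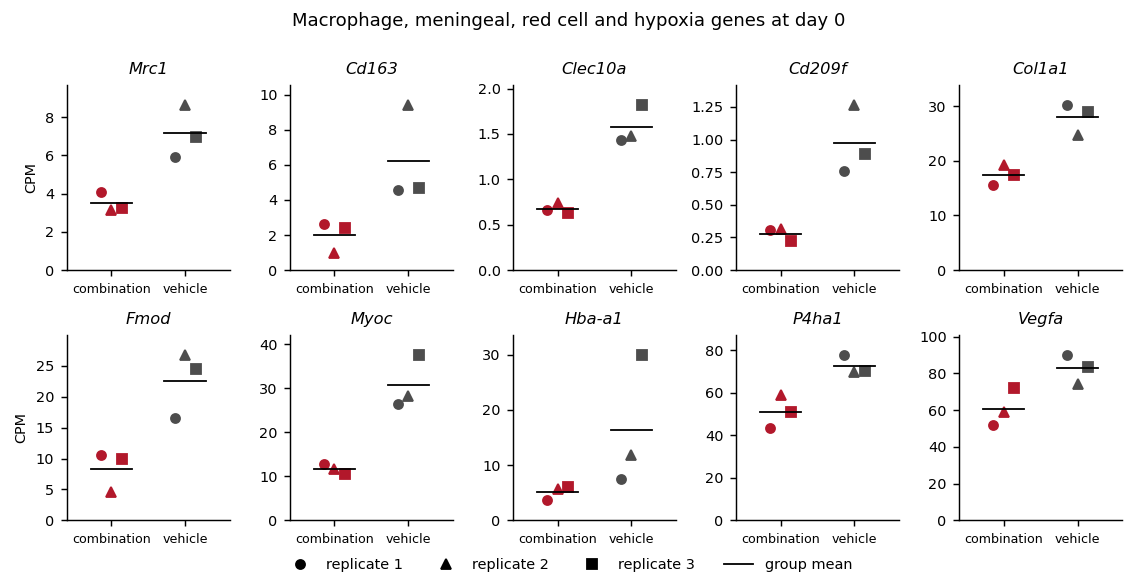
Levels in CPM (linear axis from 0) of macrophage, meningeal, red cell and hypoxia genes in the 3 combination tumours (left, red) and the 3 vehicle tumours (right, grey) at day 0; symbols are tumours and lines are group means. The 10 genes shown are all without overlap, and named genes that overlapped, such as Ogn and Alas2, were left out. By that choice all combination tumours lie below all vehicle tumours. Hba-a1 is spread by vehicle replicate 3.

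Set directly against D2C7-IT alone, the combination stood lower in perivascular macrophage, monocyte, NF-kB and proliferation genes. Most interferon gamma targets had a fold change above 0, though their summed level was not higher in combination replicate 1. In edgeR 0 of 19692 genes passed (smallest adjusted p 0.64), and DESeq2 called 199. An unadjusted p under 0.05 was found for 1439 genes (7.31%). Genes without overlap were 4.34% of those tested in the higher direction and 10.5% in the lower, and 52.1% of genes lay above 0. Perivascular and alternative macrophage markers were below 0 in 13 of 14 members, 11 of them without overlap, with a median log2 fold change of -1.48. Mrc1 stood at 4.08, 3.17 and 3.27 CPM in the combination against 9.12, 7.76 and 14.5 CPM in D2C7-IT (log2 fold change -1.54 ± 0.29). Cell cycle genes were lower in 20 of 20 members, 18 without overlap, with a median log2 fold change of -0.92. The gp130 and acute phase list had 12 of 15 members lower without overlap, and the monocyte and inflammatory macrophage list 10 of 16. Lrg1, for one, stood at 8.2, 9.33 and 7.35 CPM in the combination against 22.4, 18.4 and 15.3 CPM in D2C7-IT (log2 fold change -1.14 ± 0.19).

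NF-kB target genes stood lower in the combination than in D2C7-IT, least so in replicate 2. The NF-kB list was below 0 in 15 of 15 members, 7 without overlap, with a median log2 fold change of -1.13. Steap4 stood at 2.84, 54.8 and 6.77 CPM in the combination against 131, 139.7 and 135 CPM in D2C7-IT (log2 fold change -2.63 ± 1.05). Cxcl1 stood at 0.861, 25.1 and 0.852 CPM in the combination against 40.5, 74 and 58.5 CPM in D2C7-IT (log2 fold change -2.66 ± 1.33). Leaving out combination replicate 2, edgeR called 5 genes against D2C7-IT, all lower with an adjusted p of 0.0468: Cxcl1, Timp1, Tnc, Socs3 and Cebpd, named here after their values were seen. Timp1, an inhibitor of matrix proteases, stood at 4.2, 19.3 and 3.92 CPM in the combination and 46.9, 54.4 and 56.7 CPM in D2C7-IT. Socs3, the feedback inhibitor of gp130 signalling, stood at 11.5, 38.3 and 11.7 CPM in the combination and 45.6, 44.6 and 46.3 CPM in D2C7-IT. In the other direction, interferon gamma targets were higher in the combination than in D2C7-IT in 21 of 24 members, 6 without overlap. Their median log2 fold change was 0.61. Their summed level was 477, 1304 and 1594 CPM in the combination against 616, 833 and 701 CPM in D2C7-IT. Combination replicate 1 thus lay below every D2C7-IT tumour in that sum. Ccl22 stood at 4.08, 7.07 and 7.62 CPM in the combination against 1.13, 1.99 and 2.93 CPM in D2C7-IT (log2 fold change 1.65 ± 0.41), without overlap. Cldn5 stood at 74.4, 77.6 and 76.4 CPM in the combination against 60.9, 54.1 and 74.9 CPM in D2C7-IT (log2 fold change 0.30 ± 0.14) and overlapped.

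Against aCD40 alone, the combination overlapped in Ccl22, Cldn5 and Cd274, with 0 of 19636 genes passing in edgeR, 0 in DESeq2 and 163 (0.83%) at an unadjusted p under 0.05. Non-overlapping genes were 2.05% in the higher and 1.83% in the lower direction, and 50.5% of genes lay above 0. Ccl22 stood at 4.08, 7.07 and 7.62 CPM in the combination against 6.81, 4.78 and 16.2 CPM in aCD40 (log2 fold change -0.56 ± 0.47). Cldn5 stood at 74.4, 77.6 and 76.4 CPM in the combination against 73.2, 93.5 and 75.9 CPM in aCD40 (log2 fold change -0.088 ± 0.13), and Cd274, the PD-L1 gene, at 12.5, 40.6 and 66.4 CPM in the combination against 7.04, 13.5 and 51.9 CPM in aCD40 (log2 fold change 0.73 ± 0.83), all overlapping. Replicate 3 of the aCD40 group was the high tumour for Ccl22 and Cd274. Brain endothelium genes had 3 of 20 members above 0, 0 of them without overlap, and 3 lower without overlap, with a median log2 fold change of -0.15. Cxcl1 was higher without overlap, at 0.861, 25.1 and 0.852 CPM in the combination against 0.666, 0.503 and 0.521 CPM in aCD40 (log2 fold change 3.98 ± 1.49). Perivascular and alternative macrophage markers were below 0 in 13 of 13 members, 3 without overlap, with a median log2 fold change of -0.96, and Mrc1 stood at 4.08, 3.17 and 3.27 CPM in the combination against 8.17, 6.22 and 5.94 CPM in aCD40 (log2 fold change -0.95 ± 0.26). These 2 comparisons and that with vehicle share the combination tumours.

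**Figure D5:**
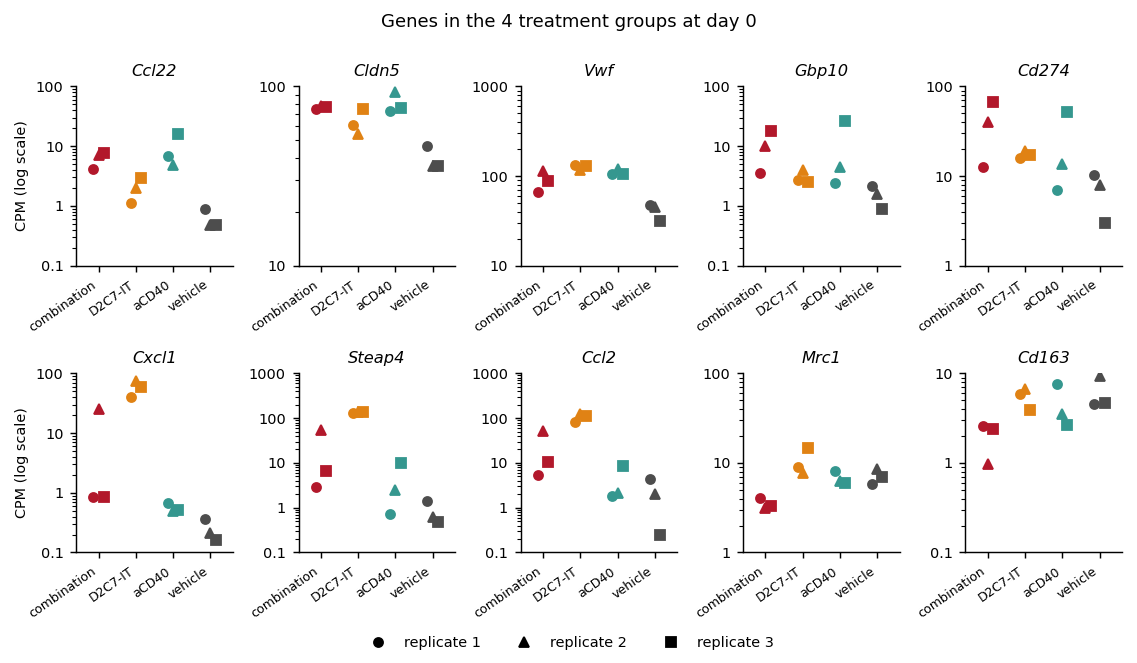
Levels in CPM (log axis) of 10 named genes in the day 0 tumours given the combination, D2C7-IT alone, aCD40 alone or vehicle, with each symbol a tumour. Cxcl1, Steap4 and Ccl2 are high in the 3 D2C7-IT tumours and in replicate 2 of the combination, Ccl22 is high in the combination and aCD40, Cldn5 and Vwf are lowest in vehicle, and Mrc1 is lowest in the combination.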

How the data were processed

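RNA of 24 flash frozen CT-vIII tumours was sequenced by the submitters, and 6 of those tumours, with the 6 given a single agent at day 0, enter here. The authors deposited raw read counts per gene and sample; per the submitters' processing notes reads were handled with STAR 2.5.2b, Trimmomatic 0.36, bcl2fastq 2.17 and the Subread 1.5.2 program featureCounts (listed in no order), and the build was GRCm38. Samples were grouped by their titles. The 6 tables hold 36 columns, 12 of them repeats with identical values, and 0 columns were left unused. Gene symbols were found for 49056 of 49315 identifiers. Whether counting used strand is not stated, so antisense partners and near-identical copies (Gbp, H2, Hba and Ly6 genes) are uncertain.

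From the counts, edgeR 4.0.16 (R 4.3.3) was run on the 6 libraries of each comparison with TMM scaling, filterByExpr and the robust quasi-likelihood test, with Benjamini-Hochberg adjustment over all genes tested and a threshold of 0.05. CPM use the total counted reads. The SE of a log2 fold change was its size divided by the square root of F. DESeq2 1.42.0, other size factors, no filter, more libraries, a replicate block and leaving out each library were the alternatives. No 2 libraries of a group agreed within sampling noise, and the labels give no batch.

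Named genes are, in each direction, up to 12 genes of smallest p with a mean of at least 1 CPM in the higher group and no overlap, up to 4 of smallest p from each list, and Egfr, Eef2, Cd40, Cd274, Cd8a, Gzmb and Ifng. Some genes that the rule names are not reported here. The members and the 45 lists (652 symbols, 587 tested) were chosen with earlier results of these data known. Promoters of 250 bases come from RefSeq (GRCm38.p6).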

Additional observations from a re-analysis of the deposited data

How the results depend on the processing

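The count of 0 genes against vehicle was the same with RLE size factors, without the filter on low counts (33845 genes tested), with 12 or 24 libraries in the fit and with any 1 library left out (0 to 0). DESeq2 called 32 genes against vehicle (23 higher, 9 lower), of which 27 are among the genes taken by the naming rule. That rule mostly ranked genes by the same counts, so the shared genes are not independent support. Against D2C7-IT DESeq2 called 199 genes (40 higher, 159 lower), and leaving out 1 library gave 0 to 5 in edgeR. Against aCD40 DESeq2 called 0, with 265 genes at an unadjusted p under 0.05, and leaving out 1 library gave 0 to 0. The labels state no pairing of the tumours. Same-numbered tumours of the combination and vehicle had correlations of -0.18, -0.47 and -0.42 in their deviations from the group means. Those of differently numbered tumours ran from -0.29 to 0.61. With 3 tumours a group such deviations constrain each other, so these values cannot decide whether tumours are paired. With the replicate block 0 genes passed against vehicle (348 at an unadjusted p under 0.05). With 1 library left out, the log2 fold change against vehicle ranged from -0.48 to 1.98 for Cd8a, -0.67 to 0.77 for Tnc and -0.23 to 1.58 for Cebpd, each below 0 without combination replicate 2, and from -0.94 to 0.046 for Egfr, above 0 without vehicle replicate 1; the cause was not tested. Otherwise 740 such values of named genes kept their sign. No gene passed in any of these fits, so none could change its side of the threshold. Genes named because the groups did not overlap keep their sign by that choice. With 3 tumours a group and a spread this wide, a p that misses the threshold does not show equal levels, and genes under about 1 CPM rest on few reads.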

Other observations

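DESeq2 called 5 genes against vehicle outside those named by the rule, and they are given here after their values were seen. Ifitm1, an interferon-induced membrane protein that restricts virus entry, stood at 6.35, 8.23 and 7.29 CPM in the combination and 3.17, 4.12 and 3.08 CPM in vehicle, a DESeq2 log2 fold change of 1.03 ± 0.22 (adjusted p 0.00491). Pglyrp1, a peptidoglycan recognition protein that brain endothelium and neutrophils express, stood at 17.7, 17.7 and 21.8 CPM in the combination and 11.5, 12.4 and 8.83 CPM in vehicle (0.75 ± 0.18). Treml4, a receptor of macrophages and dendritic cells, stood at 0.608, 0.933 and 0.874 CPM in the combination and 0.116, 0 and 0.121 CPM in vehicle, close to the limit of detection. In these 3 genes the combination tumours lay close together and above vehicle.

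Gpr151, an orphan receptor best known from neurons of the habenula, stood at 0.709, 14.3 and 3.12 CPM in the combination and 0.462, 0.323 and 0.607 CPM in vehicle, with replicate 2 far above the other 5 tumours. Edn3, the peptide endothelin 3, was the 1 lower gene of the 5, at 2.89, 2.06 and 3.16 CPM in the combination and 4.69, 5.63 and 6.32 CPM in vehicle (-1.08 ± 0.27 in DESeq2).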
